A study of Mus musculus with 12 samples.

Results

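The BCL2 family survival and death genes were followed across 12 mouse macrophage libraries. The 10 members were taken by symbol, namely Bcl2, Bcl2l1, Mcl1, Bcl2a1a, Bcl2a1b, Bcl2a1d, Bcl2l11, Bmf, Bbc3 and Bax, out of 16920 genes in the count tables, and all 10 passed the filter on low counts together with 12064 genes in total. The cells were peritoneal macrophages of C57BL/6 mice, either WT or carrying the Ythdf1 knockout (KO) in every cell of the body, a line made with CRISPR/Cas9, and the mice of the study were 6 to 10 weeks old. Starch broth (6%) given into the peritoneum for 3 days is named in the series record as the agent that drew the cells, whereas the study's methods name thioglycollate. After a night in culture, cells of each genotype received PBS or lipopolysaccharide (LPS) at 1 µg/mL for 6 h, which gave the groups WT PBS, WT LPS, KO PBS and KO LPS with 3 libraries each. The libraries of a group are described as biological replicates, but which animals each came from, and whether cells were pooled, is not given in the sources used here.

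Ythdf1 encodes a cytoplasmic protein that reads N6-methyladenosine in mRNA, and the study asked what its loss does to the macrophage response to LPS. Proteins of the BCL2 family decide whether the outer mitochondrial membrane stays intact. BCL2, BCL-XL (from Bcl2l1), MCL1 and the A1 proteins (from the Bcl2a1 genes) hold death signals in check. BIM (Bcl2l11), BMF and PUMA (Bbc3) are BH3-only proteins that bind and occupy those guardians, and BAX is an effector that permeabilises the membrane. In macrophages, Toll-like receptor signalling through NF-κB is known to induce A1, and MCL1 is a short-lived protein on which myeloid cells depend.

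Total counts per library ran from 21546274 to 22017005, so depth hardly differed between groups. Levels are normalised read counts (CPM, reads relative to the size of the library after edgeR's TMM scaling), and the floor of 3 counts came to 0.105 to 0.187 CPM. All 8 macrophage markers listed were measured, and their summed level was 17170 to 19943 CPM. Of the neutrophil list, 6 of 8 genes were in the tables; their sum was 201 to 204 CPM in WT PBS, 314 to 319 in KO PBS, 578 to 618 in WT LPS and 741 to 792 in KO LPS. Of its genes, Retnlg was at 0 in 3 of the 4 groups, Camp in both PBS groups and S100a9 in WT LPS. The T cell list summed to 2.31 to 2.96 CPM in WT PBS, 10.3 to 14.1 in WT LPS, 1.95 to 2.25 in KO PBS and 5.02 to 5.57 in KO LPS, and the mast cell list to 0.644 to 0.904, 1.015 to 1.42, 0.175 to 0.456 and 2.82 to 3.56 CPM in the same order. The B cell, eosinophil and mesothelium lists each summed to at most 7.29 CPM. The sums of these lists differ between treatments or genotypes, as several members do, and their part in the members' values was not tested. Replicate 1 of WT LPS stood apart from the other libraries of its group, with a mean chi-square per gene of 32.8 and 25.5 against them, where the other pair differed by 3.08. Replicates 2 and 3 of KO LPS differed by 16.7, beside 7.43 and 5.84 for the other pairs of that group. Ythdf1 mRNA itself was at 43.5 ± 1.54 CPM in WT and 57.2 ± 1.53 CPM in KO libraries under PBS, and at 201.5 ± 9.37 CPM in WT and 198 ± 6.94 CPM in KO libraries under LPS (SD, n = 3). The mRNA of the targeted gene was therefore not lower in the libraries labelled KO (with PBS, log2 fold change 0.40, edgeR quasi-likelihood test, adjusted p = 0.000133; with LPS, -0.03, adjusted p = 0.724), and a total over the gene cannot show which of its exons are present. Every KO group below is meant as the libraries labelled KO.

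Bcl2a1a, Bcl2a1b and Bcl2a1d are near-identical copies on chromosome 9 (GRCm38.p6, from 88723288 to 89207838), and this sets how their counts can be read. Over 519 coding bases, Bcl2a1a and Bcl2a1b differ at 11 positions (97.9% identity), Bcl2a1a and Bcl2a1d at 7 (98.7%), and Bcl2a1b and Bcl2a1d at 6 (98.8%). The first 90 coding bases hold 6 of the 12 positions at which any of the copies differ, and they are shown from GENCODE transcripts, 5′ to 3′, with the differing bases in capitals. They lie in exons at chr9:88957051-88957140 (plus strand, Bcl2a1a), chr9:89199360-89199449 (plus strand, Bcl2a1b) and chr9:88731630-88731719 (minus strand, Bcl2a1d).
Bcl2a1a: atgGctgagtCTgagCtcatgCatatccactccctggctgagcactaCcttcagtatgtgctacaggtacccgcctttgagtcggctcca
Bcl2a1b: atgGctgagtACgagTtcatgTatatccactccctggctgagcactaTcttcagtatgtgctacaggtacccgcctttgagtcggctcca
Bcl2a1d: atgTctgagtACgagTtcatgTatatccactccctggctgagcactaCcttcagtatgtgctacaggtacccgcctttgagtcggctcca
Reads were 50 bases long. Of all 50-base stretches of each transcript, 31.0% (Bcl2a1a), 20.8% (Bcl2a1b) and 20.5% (Bcl2a1d) occurred in no other gene's transcript, and every other stretch was shared with another copy or with the read-through gene Gm29094, which covers 49.1% of the Bcl2a1b exons and was not a row of the tables. The fourth copy, Bcl2a1c, had 89.6% of its stretches to itself. The counts of all 3 member copies carried decimals in all 12 libraries, as estimated counts do where reads are divided between genes. Decimals were not particular to the copies, since Bcl2l1 carried them in every library and Bcl2 and Bcl2l11 in most. Of the 50-base stretches of Bcl2l1, Bcl2 and Bcl2l11, 100%, 99.8% and 99.8% occurred in no other gene's transcript. Because the copies share stretches, each is given as an estimate beside the sum of the 4 copies, which no division of reads within the cluster can move.

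The promoters of the copies are also related, and they are shown because the copies moved together. In the RefSeq promoter table (GRCm38.p6, 250 bases before to 50 after the start; promoters of all 10 members were found, 17 in all), Bcl2a1a and Bcl2a1b matched at 99.2% of 256 bases when shifted by 44, and Bcl2a1a and Bcl2a1d at 66.3% of 300 without a shift, in a comparison that allows no gap. A match to TGANTCA, the AP-1 core as searched on both strands with any base at N, was found in each copy. It stood 120 bases before the start of Bcl2a1a, 164 before that of Bcl2a1b and 114 before that of Bcl2a1d. All 3 read TGAATCA, and 7.81% of the 32851 promoters searched hold a match to TGANTCA. The match is in capitals in the stretches chr9:88956750-88956856 (plus strand, Bcl2a1a), chr9:89199059-89199165 (plus strand, Bcl2a1b) and chr9:88731908-88732014 (minus strand, Bcl2a1d).
Bcl2a1a: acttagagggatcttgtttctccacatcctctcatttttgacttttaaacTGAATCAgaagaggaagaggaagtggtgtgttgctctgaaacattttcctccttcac
Bcl2a1b: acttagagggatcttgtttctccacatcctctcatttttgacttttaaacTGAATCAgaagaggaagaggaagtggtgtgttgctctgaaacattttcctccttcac
Bcl2a1d: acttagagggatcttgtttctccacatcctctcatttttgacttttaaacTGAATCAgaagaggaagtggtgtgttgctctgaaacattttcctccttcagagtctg
The copies share the sequence around the core, so the 3 matches are not independent. Other matches in member promoters were few. A κB consensus (4.51% of all promoters) was found in promoters of Bcl2l1 (242 bases before the start), Bmf and Bbc3. In Bbc3 it was matched at 137 and, overlapping, at 136 bases before the start. No promoter of the 3 Bcl2a1 copies held it. The FOXO core TGTTTAC (3.65% of all promoters) was found 227 bases before a start of Bcl2l11 and 167 bases before a start of Bbc3, and a p53 half-site consensus (8.36%) was found in promoters of Bmf and Bax. Of the members with the FOXO core, Bcl2l11 fell with LPS, and Bbc3 was not called in the fit of all 12 libraries under TMM scaling. In Bcl2l11 the core reads on the minus strand within chr2:128125788-128125867.
Bcl2l11: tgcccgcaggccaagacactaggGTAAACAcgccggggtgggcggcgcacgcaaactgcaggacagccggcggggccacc
A match is a string of letters and not a bound site, and no binding was measured in these data.

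The first question was how LPS changed the family in WT macrophages. Under TMM scaling, 5 of the 10 members rose, 3 fell and 2 did not pass the test, whereas under library totals alone 3 were called higher and 6 lower, Bcl2l1, Bbc3 and Bax among the latter, and Mcl1 was not called (edgeR quasi-likelihood test, Benjamini-Hochberg adjustment over all 12064 genes, threshold 0.05). The background was broad, because 76.7% of all genes tested were called with LPS in WT, 36.5% higher and 40.2% lower, so a share of 8 in 10 members is near what the whole table shows. In KO, LPS again raised 5, lowered 3 and left 2 uncalled, against 79.9% of all genes called, 38.8% higher and 41.1% lower. Under library totals, 4 were called higher and 5 lower in KO, as Bcl2l1 lost its call and Bbc3 and Bax were called lower. With a change above 1 on the log2 scale asked for as well, 6 members passed in WT and 7 in KO, against 36.4% and 41.7% of all genes. The median log2 fold change over the members was 0.36 in WT and 0.53 in KO, beside -0.05 and -0.04 over all genes. Without replicate 1 of WT LPS, 9 members were called in WT and, in the same shared fit, 10 in KO, beside 76.0% and 80.7% of all genes. The 5 contrasts share libraries, so their values are given side by side and are not independent.

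**Figure D1:**
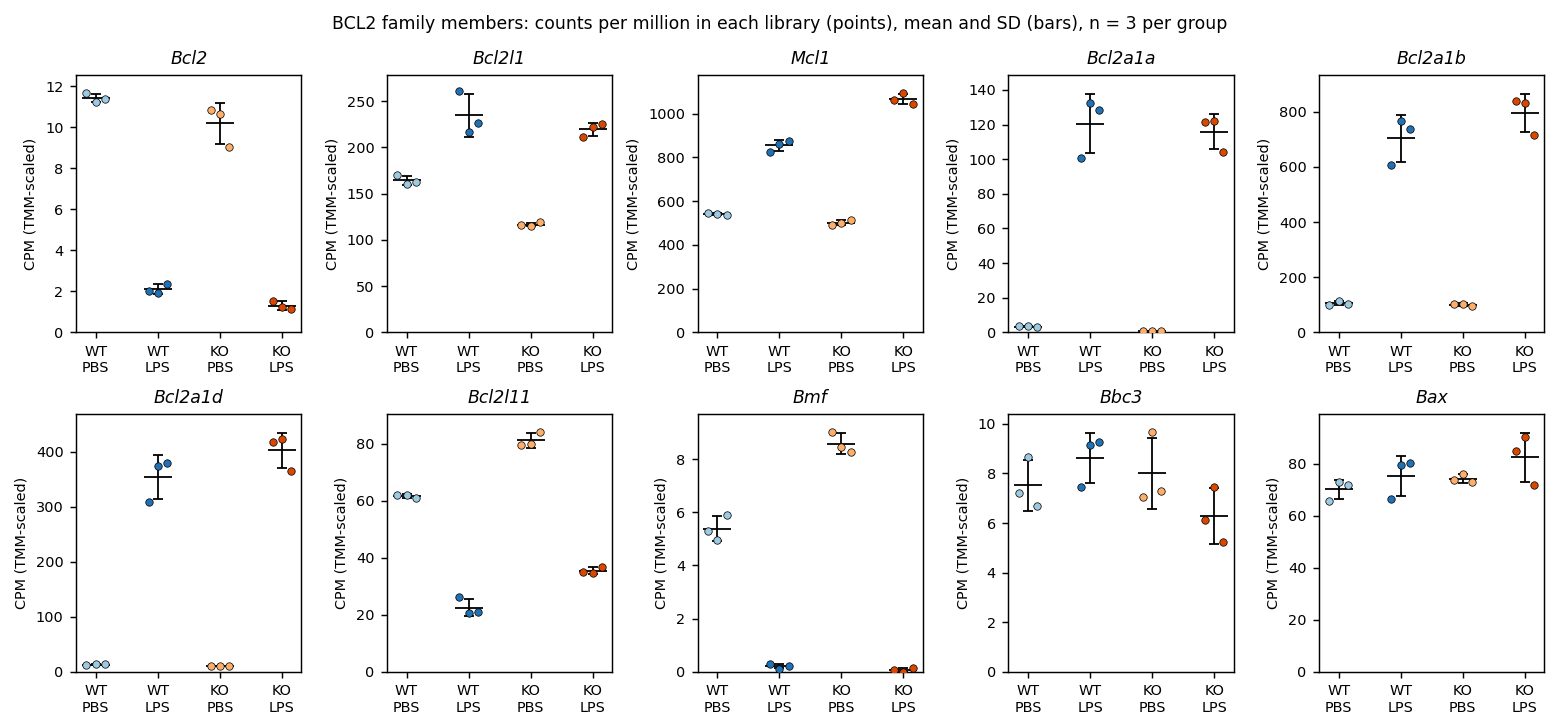
Each panel plots the TMM-scaled CPM (vertical axis, linear, from 0) of a member in each library (points) by group, with the mean and SD of 3 libraries (bars). The Bcl2a1 copies are near the bottom of their panels with PBS and far above with LPS, Bcl2, Bcl2l11 and Bmf show the opposite order, and Bbc3 and Bax overlap between WT PBS and WT LPS.

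Among the survival genes, the Bcl2a1 copies rose most. Summed over the 4 copies, their level was 115, 132 and 120.2 CPM in WT PBS and 1019.8, 1280.2 and 1253 CPM in WT LPS. It was 116, 114 and 109 CPM in KO PBS and 1386, 1385 and 1195 CPM in KO LPS. No LPS library came near a PBS library of the same genotype. The sum rose 9.68-fold in WT (log2 fold change 3.28 ± 0.0918, SE) and 11.7-fold in KO (3.55 ± 0.0930), with adjusted p = 3.35e-15 and 1.16e-15. The difference between these 2 responses, tested as the interaction, was 0.28 on the log2 scale and did not pass (adjusted p = 0.127).

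Bcl2a1b held most of the reads given to the cluster. Its level was 99.4, 114 and 103 CPM in WT PBS and 606, 766 and 738 CPM in WT LPS, a 6.68-fold rise (log2 2.74 ± 0.0914, adjusted p = 3.33e-14). In KO it was 104, 102 and 96.9 CPM with PBS and 839, 833 and 716 CPM with LPS, a 7.88-fold rise. Bcl2a1d was much lower at rest, with 11.5, 13.6 and 13.9 CPM in WT PBS, and reached 308, 374 and 379 CPM in WT LPS (27.2-fold higher). The KO libraries gave 10.01, 10.2 and 10.3 CPM of Bcl2a1d with PBS and 417, 423 and 365 CPM with LPS (39.5-fold higher). All 3 copies rose in both genotypes, each without overlap between the PBS and LPS libraries.

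Bcl2a1a was the lowest of the 3 member copies at rest. In WT it was at 3.60, 3.65 and 2.90 CPM with PBS, from 81.3 to 102 estimated counts, and at 100.8, 133 and 128 CPM with LPS, a 35.6-fold rise. In KO PBS it was at 0.825, 0.824 and 0.704 CPM, from 19.9 to 23.6 estimated counts, and with LPS at 122, 122 and 104 CPM. These levels stood above the floor of 3 counts in every library. The fitted rise in KO was 147-fold, and the interaction of genotype with LPS passed the test (log2 2.04 ± 0.234, adjusted p = 2.62e-05). The difference lay in the PBS libraries, since Bcl2a1a with LPS overlapped between genotypes (log2 -0.06, adjusted p = 0.658). As for all copies, this is the value of an estimate that divides shared reads.

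The make-up of the cluster changed with LPS in the same direction in both genotypes. Bcl2a1b fell from 86.1 ± 0.591% of the reads of the 4 copies in WT PBS to 59.4 ± 0.458% in WT LPS, and from 89.6 ± 0.496% in KO PBS to 60.2 ± 0.320% in KO LPS (SD, n = 3). Bcl2a1d went from 10.6 ± 0.839% to 29.9 ± 0.579% in WT and from 9.03 ± 0.432% to 30.4 ± 0.247% in KO. Bcl2a1a took 2.77 ± 0.358% in WT PBS and 10.2 ± 0.245% in WT LPS, against 0.695 ± 0.0419% in KO PBS and 8.77 ± 0.0354% in KO LPS. Bcl2a1c stayed under 1% of the reads in every library, with means of 0.520% to 0.670%. In each of these shares but that of Bcl2a1c, the LPS libraries lay clear of the PBS libraries. The share of Bcl2a1a was also lower in all KO libraries than in all WT libraries under the same treatment.

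**Figure D2:**
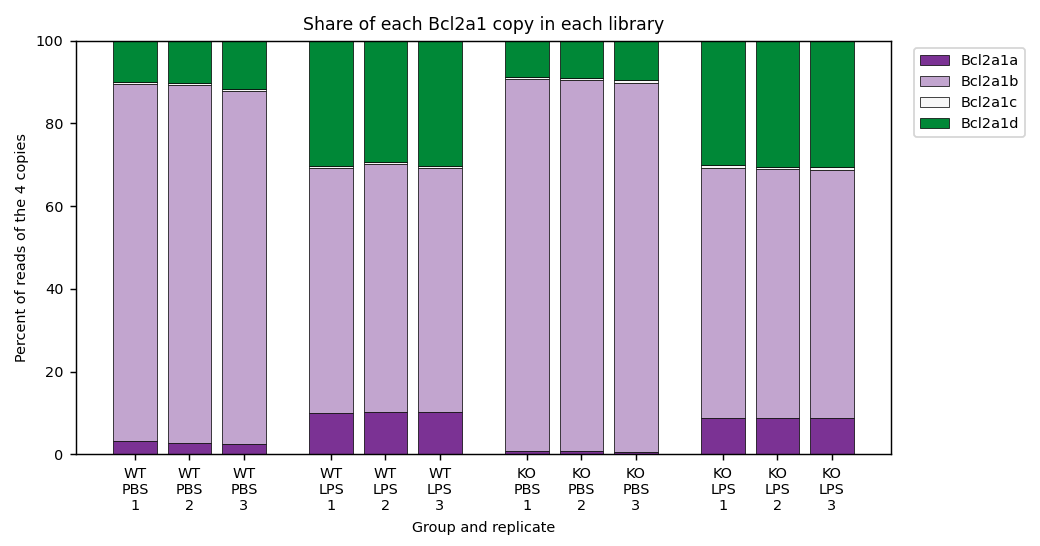
Each bar is a library and shows the percent of reads that the estimated counts give to each of the 4 Bcl2a1 copies (vertical axis, 0 to 100%). Bcl2a1b holds 85.4% to 89.97% with PBS and 58.9% to 60.6% with LPS, and the segment of Bcl2a1a is barely visible in the KO PBS bars.

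Mcl1 encodes the labile survival factor of the family. Its level was 544, 542 and 535 CPM in WT PBS and 827, 860.2 and 878 CPM in WT LPS (1.58-fold higher, log2 0.66 ± 0.0498, adjusted p = 2.30e-09). In KO it was 492, 501 and 514 CPM with PBS and 1065, 1093 and 1046 CPM with LPS (2.13-fold higher, log2 1.09 ± 0.0501). The response was larger in KO by 0.43 on the log2 scale, and this interaction passed (adjusted p = 0.000597). Before scaling, the WT libraries held 14963 to 15146 reads of Mcl1 with PBS and 14298 to 15557 with LPS, so the rise in WT is a rise relative to the other genes. With libraries scaled by their totals alone, it was -0.00 on the log2 scale in WT (adjusted p = 0.994) and 0.29 in KO (adjusted p = 6.03e-05).

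Bcl2l1, the gene of BCL-XL, also depended on that choice. It was at 169.9, 159.9 and 163 CPM in WT PBS and at 261, 216 and 226 CPM in WT LPS (1.43-fold higher, log2 0.51 ± 0.0652, adjusted p = 1.84e-06). In KO PBS it was at 116, 115 and 119 CPM and in KO LPS at 211, 222 and 225 CPM (1.88-fold higher, log2 0.91 ± 0.0659, adjusted p = 1.14e-09). All LPS libraries were above all PBS libraries of their genotype. Under library totals alone the log2 fold change turned to -0.15 in WT and was 0.11 in KO (adjusted p = 0.0895). That scaling moved the median of all genes by -0.66 in WT and -0.80 in KO, and the TMM factors were 1.26 to 1.31 for PBS libraries and 0.744 to 0.808 for LPS libraries. In bulk RNA, less of a transcript per cell and fewer cells that hold it cannot be told apart, and the amount of RNA per cell was not measured.

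Bcl2 itself went the other way. It was at 11.7, 11.2 and 11.4 CPM in WT PBS and at 2.02, 1.94 and 2.37 CPM in WT LPS, 5.40-fold lower (log2 -2.43 ± 0.123, adjusted p = 1.07e-11). In KO it was at 10.9, 10.7 and 9.05 CPM with PBS and at 1.53, 1.22 and 1.16 CPM with LPS, 7.73-fold lower (log2 -2.95 ± 0.141). The fall rested on 314 to 322 estimated counts per WT PBS library and 34.1 to 42.0 per WT LPS library. An antisense gene, D630008O14Rik, overlaps 6.09% of the Bcl2 exon bases, and whether counting used strand is not given in the sources used here. Of the survival genes, 5 were thus higher and Bcl2 lower after LPS in both genotypes under TMM scaling, with Bcl2l1 in both genotypes and Mcl1 in WT as the exceptions under library totals.

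Of the BH3-only genes, Bcl2l11, which encodes BIM, fell with LPS. It was at 62.0, 62.1 and 60.9 CPM in WT PBS and at 26.03, 20.5 and 21.0 CPM in WT LPS, 2.74-fold lower (log2 -1.46 ± 0.0775, adjusted p = 2.10e-11). The KO libraries gave 79.4, 79.99 and 84.1 CPM with PBS and 34.8, 34.7 and 36.7 CPM with LPS, 2.29-fold lower (log2 -1.20 ± 0.0745). No library of either LPS group reached a PBS library. Replicate 1 of WT LPS was the highest of its group, and without it the fall in WT was -1.57.

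Bmf fell to the edge of detection. It had 146, 139 and 165 counts in the WT PBS libraries (5.28, 4.97 and 5.90 CPM) and 5, 2 and 4 counts in the WT LPS libraries (0.289, 0.114 and 0.226 CPM). In KO it had 258, 241 and 233 counts with PBS (9.03, 8.46 and 8.25 CPM) and 1, 0 and 2 with LPS (0.0614, 0 and 0.124 CPM). Set as summed counts over scaled library sizes, Bmf was 25.7-fold lower with LPS in WT (95% exact interval 14.2 to 51.9, 11 against 450 counts) and 139-fold lower in KO (47.5 to 677, 3 against 732 counts); these intervals cover counting error only. Both falls passed the test across all genes (adjusted p = 2.51e-11 in WT and 7.00e-13 in KO).

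Bbc3, the gene of PUMA, and Bax were not called with LPS in the fit of all 12 libraries under TMM scaling, although other settings called both. Bbc3 was at 7.23, 8.66 and 6.68 CPM in WT PBS and at 7.46, 9.17 and 9.25 CPM in WT LPS (log2 0.20 ± 0.148, adjusted p = 0.234). With single libraries left out, Bbc3 changed by 0.117 to 0.309 in WT. In KO it was at 7.07, 9.66 and 7.30 CPM with PBS and 6.14, 7.47 and 5.22 CPM with LPS (log2 -0.35 ± 0.157, adjusted p = 0.0506). In that KO comparison 11 of 21 alternatives called Bbc3 lower, and the adjusted p ran from 3.74e-06 (library totals alone) to 0.247 (without replicate 2 of KO PBS). Still under TMM, it was called with no filter on low counts (-0.40, adjusted p = 0.0278), with at least 10 counts in every library (-0.40, adjusted p = 0.0295), with the replicate block (-0.35, adjusted p = 0.0124) and with only the libraries compared (-0.36, adjusted p = 0.0446). It was also called in 5 of 12 fits that left out a library, namely replicate 2 of WT PBS, 1 of WT LPS, 1 or 3 of KO PBS or 2 of KO LPS. In WT, Bax was at 65.9, 72.9 and 71.9 CPM with PBS and at 66.6, 79.7 and 80.3 CPM with LPS. The KO libraries gave 73.7, 76.2 and 73.1 CPM of Bax with PBS and 85.1, 90.4 and 72.1 CPM with LPS, and its libraries overlapped between the treatments. Its log2 fold change with LPS was 0.10 ± 0.0848 in WT (adjusted p = 0.271) and 0.15 ± 0.0846 in KO (adjusted p = 0.112). With single libraries left out, these values ranged from 0.0579 to 0.186 in WT and from 0.0817 to 0.240 in KO. Without replicate 1 of WT LPS, Bax passed in both genotypes (0.19, adjusted p = 0.0284 and 0.15, adjusted p = 0.0424), and without replicate 3 of KO LPS it passed in KO (0.24, adjusted p = 0.0130). Under library totals alone, both were called lower with LPS, Bbc3 by -0.46 in WT (adjusted p = 0.00942) and -1.15 in KO (adjusted p = 3.74e-06) and Bax by -0.56 (adjusted p = 2.32e-05) and -0.65 (adjusted p = 3.79e-06). Upper-quartile scaling also called Bbc3 lower in KO (-0.71, adjusted p = 0.000904). For Bax, the overlapping gene Gm45808 shares 12.2% of the exon bases.

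**Figure D3:**
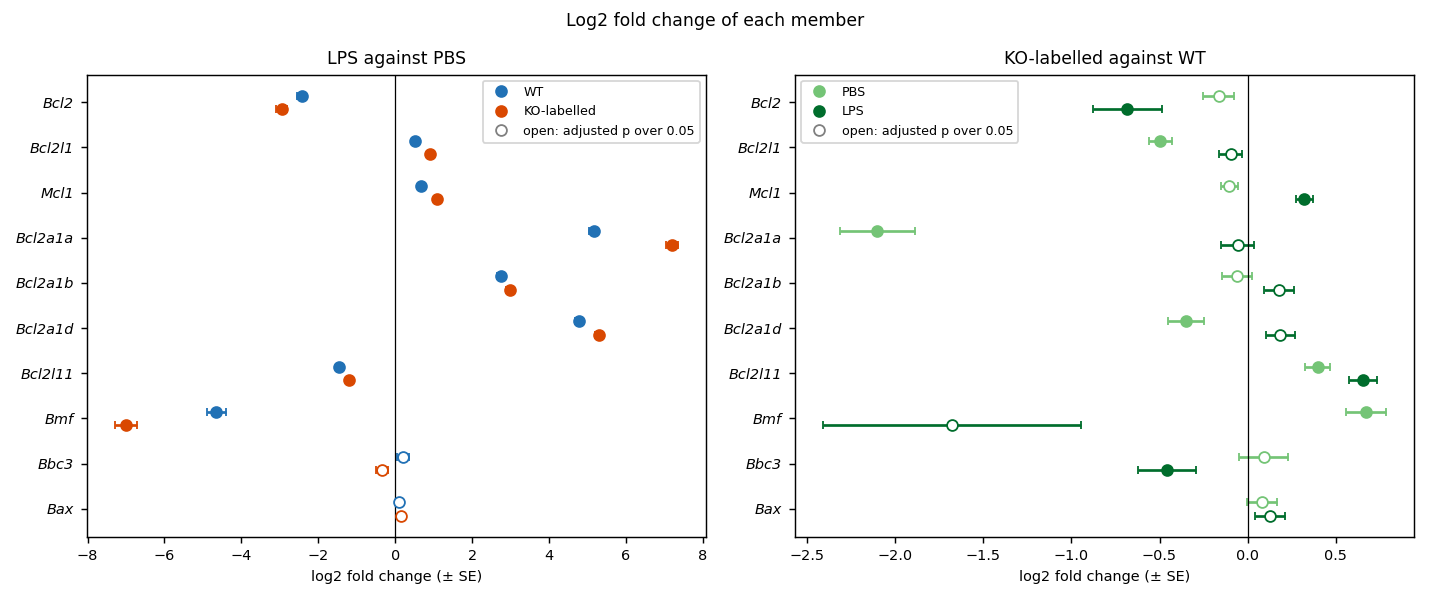
The left panel plots the log2 fold change of each member with LPS against PBS in WT and in KO-labelled libraries, and the right panel that of KO-labelled against WT libraries under PBS and under LPS (horizontal axes, points with SE from edgeR; open points have an adjusted p over 0.05). With LPS the Bcl2a1 copies, Mcl1 and Bcl2l1 sit to the right of 0 and Bcl2, Bcl2l11 and Bmf to the left, and between genotypes the farthest called point is Bcl2a1a under PBS at -2.10.

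The next question was whether the members differed between genotypes at rest. Under PBS, 5 of 10 members differed, 2 higher and 3 lower in KO, where 25.3% of all genes were called, 12.3% higher and 13.0% lower; with a change above 1 asked for as well, 1 member and 3.31% of all genes passed. Bcl2a1a was 4.29-fold lower in KO PBS (log2 -2.10 ± 0.213, adjusted p = 3.42e-06), with all KO libraries under all WT libraries. The sum of the copies, in contrast, differed by -0.12 ± 0.0857 with overlapping libraries (adjusted p = 0.352), and Bcl2a1b by -0.06 (adjusted p = 0.664). Bcl2a1d was 1.27-fold lower (log2 -0.35 ± 0.104, adjusted p = 0.0213), a call that was lost in 5 of 12 fits that each left out a library, with an adjusted p of up to 0.103 (without replicate 1 of KO PBS); the others were without replicates 2 and 3 of either PBS group. It was lost under library totals as well (-0.30, adjusted p = 0.0589).

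Bcl2l1 was lower in KO PBS, at 0.710 times its WT level (log2 -0.49 ± 0.0654, adjusted p = 4.92e-05). Both called increases were of BH3-only genes. Bcl2l1, Bcl2l11 and Bmf lie on chromosome 2, as does the targeted Ythdf1, whereas the other called members, Bcl2a1a and Bcl2a1d, lie on chromosome 9. Whether a shared chromosome bears on these differences was not tested. Bcl2l11 was 1.32-fold higher (log2 0.40 ± 0.0704, adjusted p = 0.000685) and Bmf 1.59-fold higher (0.67 ± 0.113, adjusted p = 0.000440), each with all KO libraries above all WT libraries. Bcl2 differed by -0.17 ± 0.0881 (adjusted p = 0.191), and by -0.0650 without replicate 3 of KO PBS. Mcl1 differed by -0.10 ± 0.0496 (adjusted p = 0.140), and by -0.112 to -0.0629 with single libraries left out. Although in both genes the KO libraries lay below the WT libraries, neither passed the test. With only the PBS libraries fitted, Mcl1 was called lower (-0.11, adjusted p = 0.0203). Bbc3 (0.09, adjusted p = 0.690) and Bax (0.08, adjusted p = 0.522) were not called.

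With LPS, 4 members differed between genotypes, 2 higher and 2 lower in KO, where 41.4% of all genes were called, 22.1% higher and 19.3% lower. The share of members called was thus at the background, and 0 members had a change above 1 as well, which 4.72% of all genes had. Mcl1 was 1.25-fold higher in KO LPS (log2 0.32 ± 0.0496, adjusted p = 9.29e-05) and Bcl2l11 1.57-fold higher (0.65 ± 0.0808, adjusted p = 1.10e-05), both without overlap. Bcl2 was 1.60-fold lower (log2 -0.68 ± 0.195, adjusted p = 0.0103) on 18.7 to 25.0 counts per KO LPS library; without replicate 3 of WT LPS it was -0.59 and no longer passed (adjusted p = 0.0505). Bbc3 was 1.37-fold lower (-0.46 ± 0.164, adjusted p = 0.0346) although the libraries overlapped, and the call was lost without replicate 2 or 3 of WT LPS or replicate 1 or 3 of KO LPS (adjusted p up to 0.143). Leaving out replicate 3 of WT LPS brought the count of members called to 2 (Mcl1 and Bcl2l11), beside 36.1% of all genes. Leaving out replicate 3 of KO LPS brought it to 7, beside 36.4% of all genes, as Bcl2a1b, Bcl2a1d, Bmf and Bax passed and Bbc3 did not. The other members were not called, namely Bcl2l1 (-0.10, adjusted p = 0.262, but called lower under upper-quartile scaling with -0.16, adjusted p = 0.0395, and under library totals with -0.18, adjusted p = 0.0208), the copies Bcl2a1a (-0.06, adjusted p = 0.658), Bcl2a1b (0.18, adjusted p = 0.106) and Bcl2a1d (0.18, adjusted p = 0.0853), Bmf and Bax (0.13, adjusted p = 0.251). With single libraries left out, Bcl2l1 ranged from -0.151 to -0.0107 without a call. In the same fits Bcl2a1b ranged from 0.0827 to 0.250 and Bcl2a1d from 0.0944 to 0.250. Both copies were lowest without replicate 1 of WT LPS and highest without replicate 3 of KO LPS. Bcl2a1b passed without replicate 2 of WT LPS too (adjusted p = 0.0416). For Bmf, 3 against 11 counts gave a 3.40-fold lower level with an exact interval of 0.897 to 19.0.

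The interaction asked whether the LPS response itself differed between genotypes. It was called for 5 of 10 members, 4 upward and 1 downward, where 18.0% of all genes were called, 9.78% upward and 8.26% downward (2 members and 2.69% of all genes with a difference above 1). Upward means a response less negative or more positive in KO. The called members were Bcl2a1a and Mcl1 with the values already given, Bcl2a1d (log2 0.53 ± 0.133, adjusted p = 0.0109), Bcl2l1 (0.40 ± 0.0923, adjusted p = 0.00701) and Bmf (-2.35 ± 0.734, adjusted p = 0.0363). Under library totals 3 were called upward and 3 downward, since Bcl2 (-0.65, adjusted p = 0.0408) and Bbc3 (-0.69, adjusted p = 0.0373) passed and Bcl2a1d did not (0.40, adjusted p = 0.0614), and the share of upward calls over all genes went from 54.2% to 24.4%. For Bcl2l1 the difference lay at rest under TMM scaling, where KO libraries were lower and the LPS libraries of both genotypes overlapped. Upper-quartile scaling and library totals called it lower in KO with LPS as well. Bcl2a1a and Bcl2a1d share reads and are not independent, and the interaction of the summed copies did not pass (0.28). The Bmf value rests on 3 counts in KO LPS and was lost in 8 of 12 fits that left out a library (adjusted p up to 0.117, without replicate 2 of KO LPS; the others were without replicates 1 and 2 of WT PBS, 1 and 3 of WT LPS, 1 and 2 of KO PBS and 1 of KO LPS). Bcl2 (-0.52, adjusted p = 0.111) and Bcl2l11 (0.26, adjusted p = 0.109) did not pass, though Bcl2l11 did without replicate 1 of WT LPS (0.38, adjusted p = 0.00285). Bbc3 (-0.55, adjusted p = 0.0932) and Bax (0.05, adjusted p = 0.847) did not pass either, and Bbc3 passed without replicate 1 of WT LPS (-0.64, adjusted p = 0.0391) or replicate 2 of KO LPS (-0.69, adjusted p = 0.0466).

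Since a ratio of 2 members within a library does not depend on how libraries are scaled, 4 such ratios were compared. The reads of Bcl2l11 were 11.4% of those of Mcl1 in WT PBS and 2.62% in WT LPS, and 16.2% and 3.32% in KO. On the log2 scale the ratio changed by -2.13 in WT and -2.28 in KO, and it was higher in KO than in WT by 0.50 with PBS and by 0.34 with LPS. The ratio of Bcl2 to Mcl1 changed with LPS by -3.10 in WT and -4.06 in KO, and with LPS it stood lower in KO (-1.02). Bax to Bcl2l1 changed by -0.41 in WT (-0.24 without replicate 1 of WT LPS) and -0.77 in KO, and it was 0.58 higher in KO with PBS. The summed Bcl2a1 reads went from 22.6% of the Mcl1 reads to 138% in WT and from 22.4% to 124% in KO. All of these differences separated the 3 libraries of each group completely, for which an exact two-sided permutation test gives p = 0.1, the smallest it allows with 3 against 3 libraries, and 0.133 after adjustment over the 16 comparisons, so none could reach the threshold. The genotype differences of Bcl2 to Mcl1 with PBS (-0.06, exact p = 0.9), of summed Bcl2a1 to Mcl1 with PBS (-0.01, exact p = 1) and with LPS (-0.16, exact p = 0.3), and of Bax to Bcl2l1 with LPS (0.22, exact p = 0.5) overlapped. The last of these ranged from 0.0504 (without replicate 1 of WT LPS) to 0.332 (without replicate 3 of KO LPS).

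**Figure D4:**
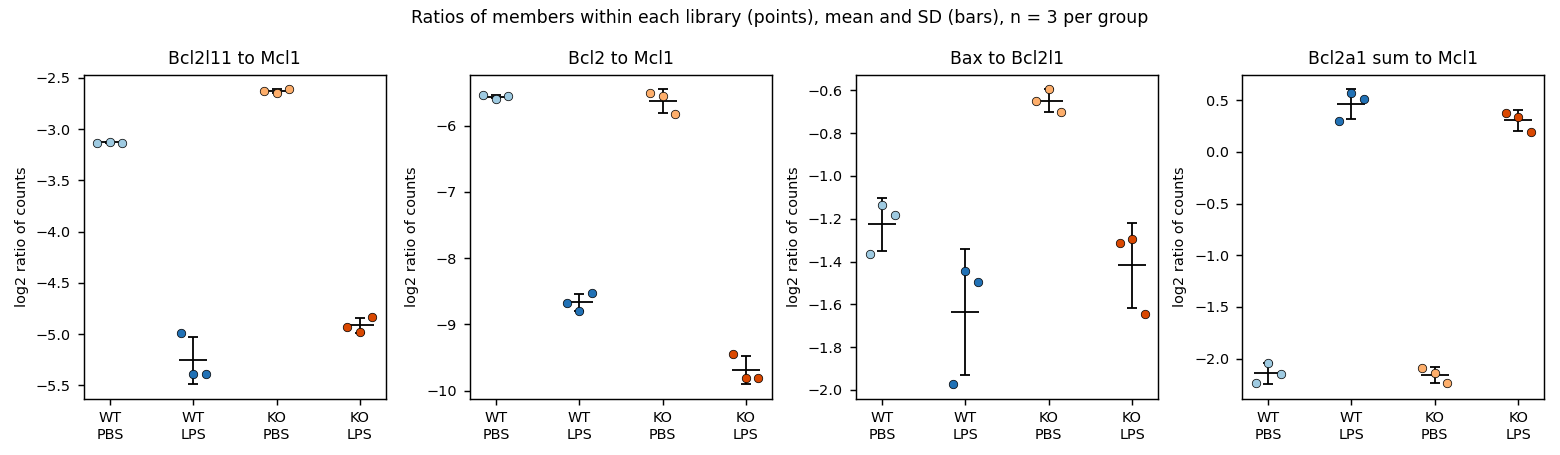
Each panel plots the log2 ratio of the counts of 2 members within each library (points; vertical axis) by group, with the mean and SD of 3 libraries (bars). The ratio of Bcl2l11 to Mcl1 drops with LPS and is higher in KO under both treatments, while that of summed Bcl2a1 to Mcl1 rises from about -2.14 to 0.46 in WT and lies at like levels in KO.

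Levels of different genes can be set side by side only per length, and for this the counts were divided by the exon length in GENCODE and scaled to the same total in each library (a level per length, in the manner of TPM). In WT PBS the order was Mcl1 (637 ± 3.17), Bcl2a1b (519.6 ± 35.6), Bax (179.6 ± 9.73), Bcl2l1 (144 ± 4.73), Bcl2a1d (60.6 ± 6.26), Bcl2l11 (31.0 ± 0.131), Bcl2a1a (16.6 ± 1.94), Bbc3 (14.3 ± 1.84), Bcl2 (5.03 ± 0.108) and Bmf (4.13 ± 0.392). The libraries of Bcl2a1a and Bbc3 overlapped, and the order of Bax and Bcl2l1 turned when the longest transcript was taken as the length. In WT LPS the A1 genes took the lead, with Bcl2a1b at 2116 ± 224 and Bcl2a1d at 1007 ± 97.3, followed by Mcl1 (615 ± 9.38) and Bcl2a1a (362 ± 46.0). Bcl2l1 (126 ± 14.9) and Bax (118 ± 10.2) overlapped there, and Bbc3 (9.98 ± 1.01), Bcl2l11 (6.91 ± 1.07), Bcl2 (0.568 ± 0.0580) and Bmf (0.0986 ± 0.0430) closed the order. The same genes led in KO, with Mcl1 (614 ± 13.5) before Bcl2a1b (517 ± 19.4) at rest and Bcl2a1b (2212 ± 168), Bcl2a1d (1057 ± 69.9) and Mcl1 (709 ± 3.34) with LPS. At rest in KO, Bcl2a1a (4.001 ± 0.350) was the last of the 10, but its libraries (3.60 to 4.23) overlapped those of Bcl2 (4.14 to 4.99).

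**Figure D5:**
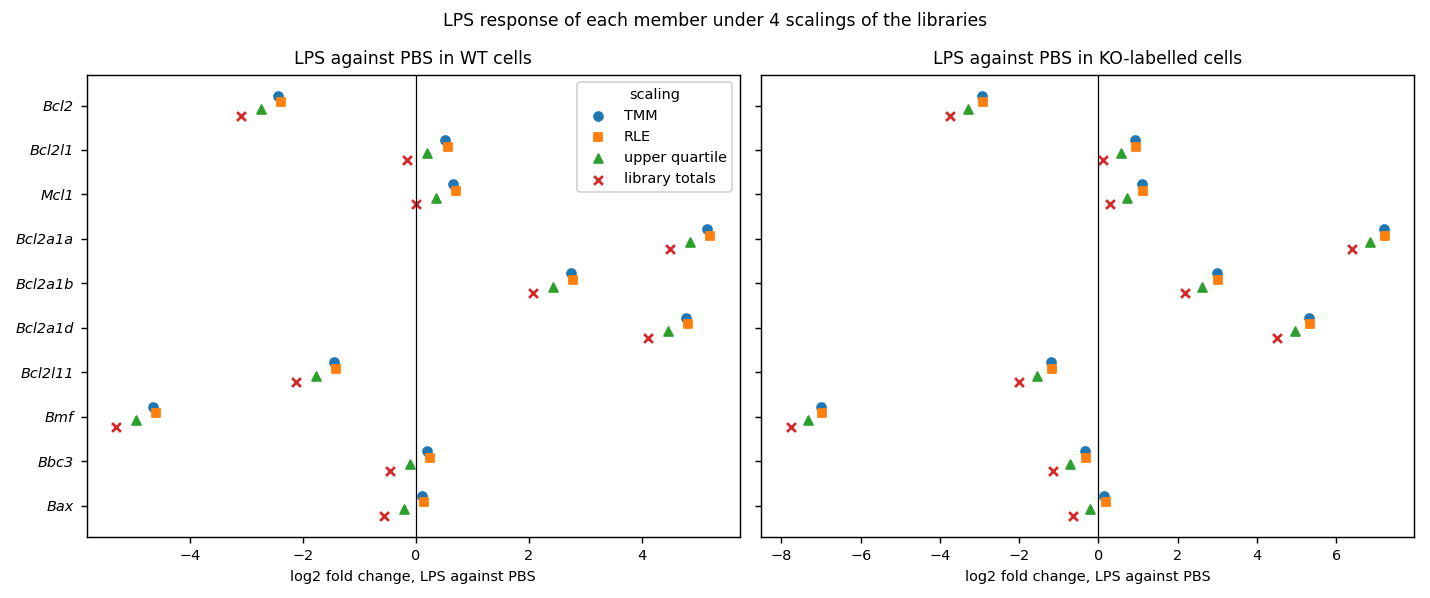
Each point is the log2 fold change of a member with LPS against PBS (horizontal axis) under a scaling of the libraries (TMM, RLE, upper quartile, library totals), in WT (left) and KO-labelled libraries (right). All points of Bcl2, Bcl2l11 and Bmf stay left of 0 and all points of the Bcl2a1 copies right of 0, whereas Bcl2l1, Mcl1, Bbc3 and Bax have points on or near both sides in WT.

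The remaining genes of the pathway were counted from 5 lists. Of the other BCL2 family genes, 13 of 14 were measured and 9 tested; 4 rose and 3 fell with LPS in either genotype, a share at the background of 76.7% of all genes in WT and 79.9% in KO. Bak1, the other effector, rose by 1.15 in WT and 1.27 in KO (log2), Bid, a BH3-only protein cut by caspase-8, by 1.05 and 1.10, and Bcl2a1c by 3.36 and 3.41, while Bcl2l12 fell (-1.83 and -1.99). Between genotypes 1 of the 9 was called under PBS (Bak1, -0.30, adjusted p = 0.000819; 2 with only the libraries compared) and 2 under LPS, 1 each way (1 without replicate 1 of KO LPS), where 25.3% and 41.4% of all genes were called. In the interaction edgeR called 0 of the 9, with 1 at an unadjusted p under 0.05 and a lowest adjusted p of 0.0992.

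Of the 12 genes reported of the mitochondrial death pathway downstream, 7 rose and 2 fell with LPS in WT, and 7 rose and 4 fell in KO, where 76.7% and 79.9% of all genes were called. The caspase inhibitor gene Birc3 rose most of them (log2 3.59 in WT and 3.81 in KO). Cycs, encoding cytochrome c, rose by 2.06 and 2.33, Birc2 by 1.58 and 1.41, and Apaf1, the apoptosome scaffold, by 1.18 and 0.67. Casp6 (-1.06 and -1.44) and Casp9, the initiator caspase (-0.87 and -1.19), fell. Under PBS 4 of the 12 differed between genotypes (2 higher in KO) and under LPS 8 (4 higher), and 3 interactions were called (all downward), beside 25.3%, 41.4% and 18.0% of all genes. With single libraries left out, these counts ranged from 1 to 5, 6 to 8 and 1 to 3; under PBS 1 was left when any of the 3 WT PBS libraries was left out (and 2 with no filter on low counts), and in the interaction 1 without replicate 2 or 3 of WT PBS, 2 of WT LPS, 2 of KO PBS or 1 of KO LPS.

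Among 10 genes of p53 and its targets, 4 rose and 5 fell with LPS in WT (76.7% of all genes called), and 5 rose and 5 fell in KO (79.9%). Cdkn1a (4.17 and 4.54), Fas (3.73 and 3.55), Mdm2 (2.04 and 2.23) and Aen (1.19 and 1.36) rose, and Phlda3 (-2.54 and -3.89), Sesn2 (-2.06 and -2.05) and Zmat3 (-1.70 and -1.72) fell. Gadd45a fell in WT (-0.66) and rose in KO (1.503). In this list 4 genes differed under PBS (1 higher in KO), 3 under LPS (all higher) and 3 in the interaction (2 upward), beside 25.3%, 41.4% and 18.0% of all genes. Under PBS the count was 2 without replicate 1 of WT PBS or replicate 1 or 2 of KO PBS, and under LPS it was 5 without replicate 2 of WT LPS. Bbc3 and Bax, which p53 is also known to activate, were not called with LPS in either genotype in the fit of all 12 libraries under TMM scaling, with the exceptions under other settings given above for each.

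Of 12 transcription factors known to act on the family, 6 rose and 6 fell with LPS in WT, and 6 rose and 5 fell in KO, beside 76.7% and 79.9% of all genes called. The NF-κB genes Nfkb1 (3.49 and 3.99), Rel (3.26 and 3.39) and Rela (1.79 and 2.07) and the STAT genes Stat3 (2.46 and 2.63) and Stat5a (2.45 and 2.61) rose. Foxo3, a known activator of Bcl2l11 and Bbc3, fell (-3.28 and -3.01), as did Myc (-1.51 and -0.96), E2f1 (-1.37 and -1.90) and Ddit3 (-1.15 and -1.02). Between genotypes 2 were called under PBS (both lower in KO), 7 under LPS (6 higher) and 4 in the interaction (2 upward), where 25.3%, 41.4% and 18.0% of all genes were called. Under PBS the count was 0 without replicate 1 of KO PBS, 1 without replicate 1 of WT PBS or 2 of KO PBS, 4 under library totals and 6 with only the libraries compared. It was 4 under LPS without replicate 1 of KO LPS or with only the libraries compared, and 2 in the interaction without replicate 1 or 2 of KO PBS. Of 6 genes whose products mark MCL1 for destruction or spare it, 1 rose and 3 fell with LPS in WT and 2 rose and 3 fell in KO. Of all genes, 76.7% and 79.9% were called in these contrasts. Under PBS edgeR called 0 of these 6 between genotypes in the fit of all 12 libraries, also 0 at an unadjusted p under 0.05, but 1 with only the libraries compared. Under LPS 2 were higher in KO (4 called without replicate 1 of WT LPS), and 1 interaction was called, upward.

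The genes whose pattern over the 12 libraries was most like that of each member were found by Pearson's r of log2(CPM + 1) across 11609 genes with a mean of at least 10 counts. They were Wipi1 and Zdhhc14 for Bcl2 (r = 0.997 for both), Slpi (0.998) and Csf3 (0.997) for Mcl1, and Gm29779 (0.994) and Cyb5r3 (0.993) for Bcl2l1. For the copies they were Ccl7 and Slamf9 (Bcl2a1a), Cd80 and Il18 (Bcl2a1b) and Slc28a2 and Car13 (Bcl2a1d), with r of 0.999 or more when rounded to 3 decimals. Git2 (0.997) and Sh2b2 (0.994) were nearest to Bcl2l11, and Nat8l and Gpr157 (0.998 for both) to Bmf. Such values are common here, since the points share the LPS contrast: 1773 genes exceeded r = 0.95 with Bcl2 and 2125 with Bcl2a1b. Bbc3 had no gene above 0.95, its nearest being Hint1 (0.923) and Rps16 (0.895), and Bax had only Dctn5 (0.969), followed by Tmem179b (0.944).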

How the data were processed

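RNA of 12 mouse peritoneal macrophage libraries (50-base single-end reads, BGISEQ-500) was deposited by the authors in the form of expected counts per gene, that is, estimated counts with decimals, unscaled, under NCBI gene numbers. The submitters' processing notes name Bowtie2, RSEM 1.3.1 and GRCm38.p6, whereas the study's methods name STAR and HTSeq; which made the values is not given in the sources used here. Decimals were found in 24.6% to 26.9% of the values of a library.

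Counts were rounded and tested in R 4.3.3 with edgeR 4.0.16 (filterByExpr on the 4 groups, 12064 genes; TMM; robust quasi-likelihood fit of 4 group means to 12 libraries; Benjamini-Hochberg over all genes, threshold 0.05, two-sided). The typical biological coefficient of variation was 6.99%. SEs are the absolute log2 fold change divided by the square root of F. CPM used TMM-scaled sizes. The 5 contrasts were LPS against PBS in each genotype, KO against WT under each treatment, and their interaction. Intervals of count ratios are exact and, like floors, cover counting error only. The procedure was tested on simulated data in which few genes were changed, a setting that does not cover the broad change with LPS seen here.

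Alternatives were DESeq2 1.42.0, RLE, upper-quartile or total scaling, no filter or at least 10 counts in every library, counts rounded down, a fit to the libraries compared, a replicate block, leaving out each library, and a further threshold of 1 on the log2 scale; the longest transcript as length was chosen after seeing the data. The members and lists were chosen with earlier results of these data known. Named are all members, Ythdf1, list genes past the threshold with an absolute log2 fold change over 1 in any contrast, and the 2 genes most like each member. Positions are from RefSeq (16803 of 16920 gene numbers matched); lengths were found for 16408 genes (97.0%) and transcripts came from GENCODE M21. Protein sequences were not used here. Some genes of the mitochondrial death pathway list are not reported here.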

Additional observations from a re-analysis of the deposited data

Results flagged for a closer look

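The LPS response differed between genotypes by the interaction term (edgeR quasi-likelihood test, adjusted over all genes) for 5 of 10 members, where 18.0% of all genes were called. On the log2 scale, the response in KO exceeded that in WT by 2.04 for Bcl2a1a, 0.53 for Bcl2a1d, 0.43 for Mcl1 and 0.40 for Bcl2l1. The difference was -2.35 for Bmf. Bcl2a1a and Bcl2a1d share reads and are not independent, and the interaction of the summed copies did not pass (0.28). The Bmf call rests on 3 counts in KO LPS and was lost in 8 of 12 fits that left out a library (adjusted p up to 0.117), and that of Bcl2a1d was lost under library totals (adjusted p = 0.0614). For Bcl2a1a and Bcl2l1, KO was lower with PBS (adjusted p = 3.42e-06 and 4.92e-05), and with LPS their libraries overlapped under TMM scaling. Upper-quartile scaling and library totals called Bcl2l1 lower in KO with LPS as well (-0.16 and -0.18). Bcl2a1d differed by -0.35 with PBS (adjusted p = 0.0213, a call lost in 5 of 12 fits that left out a library) and by 0.18 with LPS (adjusted p = 0.0853). Mcl1 differed by 0.32 with LPS (adjusted p = 9.29e-05) and by -0.10 with PBS (adjusted p = 0.140, but 0.0203 when only the PBS libraries were fitted).

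Among the other genes named, the interaction passed for Gadd45a (2.16), Phlda3 (-1.35), Myc (0.54), E2f1 (-0.53), Apaf1 (-0.51), Nfkb1 (0.50), Ythdf1 (-0.42), Cdkn1a (0.37) and Casp9 (-0.33). With single libraries left out, Casp9 lost its call in 7 of 12 fits, Myc in 5, Phlda3 in 3 and E2f1 in 1 (adjusted p up to 0.0743, 0.0692, 0.0651 and 0.0610), and Myc also lost it under library totals (adjusted p = 0.0590), while the other 5 kept it in all 12. Gadd45a was the only one of these whose called responses had opposite signs in WT and KO. No group has more than 3 libraries, so single libraries far from their group were not tested.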

How the results depend on the processing

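Over the 50 member comparisons and 1048 values under alternatives, 969 kept direction and call, 36 lost a call, 28 gained one and 15 changed sign. The causes were not tested, except that scaling by library totals shifts all genes with LPS. Under library totals alone the LPS change turned to -0.15 (Bcl2l1 in WT), -0.000432 (Mcl1 in WT), -0.46 (Bbc3 in WT), -0.56 (Bax in WT) and -0.65 (Bax in KO), and the interaction of Bax to -0.0919. Under upper-quartile scaling, which moved the median of all genes by -0.31 in WT and -0.36 in KO, it turned to -0.11 (Bbc3 in WT) and to -0.20 for Bax in both genotypes (-0.204 each). Of the calls with LPS, 47.6% were higher in WT under TMM, but 32.5% under upper-quartile scaling and 21.2% under library totals; in KO these were 48.6%, 33.8% and 20.8%, and totals moved the share from 48.6% to 61.6% for KO against WT under PBS, from 53.4% to 37.9% under LPS and from 54.2% to 24.4% in the interaction.

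A further threshold of 1 on the log2 scale left 1 member between genotypes under PBS, 0 under LPS and 2 in the interaction, beside 3.31%, 4.72% and 2.69% of all genes. The summed Bcl2a1 copies under PBS differed by -0.119 (adjusted p = 0.0404) when only the PBS libraries were fitted.

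With single libraries left out, members called between genotypes ranged from 4 to 5 under PBS and from 2 to 7 under LPS, and from 4 to 6 in the interaction, where 16.3% to 31.8%, 33.6% to 41.0% and 12.7% to 21.9% of all genes were called. Values that changed sign ranged from -0.0790 to 5.41e-05 (Bcl2a1b under PBS), -0.0407 to 0.202 (Bbc3 under PBS), -0.170 to 0.0163 (Bcl2a1a under LPS), -0.0354 to 0.136 (interaction of Bax), -0.127 to 0.0354 (ratio of Bcl2 to Mcl1 under PBS) and -0.0598 to 0.0415 (summed Bcl2a1 to Mcl1 under PBS); the summed copies under PBS ranged from -0.132 to -0.0610.

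Deviations of same-numbered libraries correlated between -0.0758 and 0.127, with 1 of 18 pairs above 0.1. Such low values cannot exclude that same-numbered libraries came from the same animals, which is not given. The main fit held no replicate block. With the replicate block, 8, 9, 5, 4 and 6 members were called in the 5 contrasts, against 8, 8, 5, 4 and 5 without it; Bbc3 gained the calls, for LPS in KO (-0.35, adjusted p = 0.0124) and the interaction (-0.55, adjusted p = 0.0280).

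DESeq2 did not call the interaction of Bmf (-2.46, adjusted p = 0.0508). The depth limits Bmf with LPS, at 0 to 5 counts per library.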
